A study of Mus musculus with 13 samples.

Results

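The liver-resident ILC1-like cells described here were 1242 of 95563 cells of mouse liver single-cell RNA-seq (1.30%). Members were selected on measured UMIs and were cell barcodes with at least 1500 unique molecular identifiers (UMIs, the count of distinct captured transcripts), at least 2 UMIs of the NK receptor genes Ncr1 and Klrb1c together, at least 1 UMI of the residency genes Cxcr6, Itga1 and Cd200r1 together, and no UMI of Cd3e, Cd3d, Cd79a or Siglech. The levels of these 9 genes in the members are therefore a description and were not tested. Cells that met the same rule but held no UMI of Cxcr6, Itga1 or Cd200r1 numbered 1033 and are called NK-like cells, and both sets together are called the NK gate. Cells with at least 2 UMIs of Cd3e and Cd3d together and none of Cd79a, Ncr1 or Klrb1c form the T cell gate. Cells with at least 2 UMIs of Cd79a and none of Cd3e, Cd3d, Ncr1 or Klrb1c are the B cells. Since both sets leave out cells with an NK receptor UMI, their shares with NK genes may understate free NK RNA, which was not tested.

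The livers came from young adult male C57BL/6J mice fed chow that held 0.1% DDC (3,5-Diethoxycarbonyl-1,4-Dihydrocollidine), a xenobiotic that injures bile ducts and induces cholangitis with a ductular reaction. A control at day 0 (D0, no DDC) and DDC for 3, 5, 9, 19 or 25 days (D3 to D25) were each captured once by isolation protocol A and once by protocol B, which gave 12 atlas libraries, and 1 recovery library (protocol B) came from mice with prolonged DDC feeding and then 7 days without it. That diet is given as 18 days in one source used here and as 18 or 19 days in another, and D19 also takes in livers from day 18. The stages compared are steady state, which is D0, onset, made up of D3 with D5, and progression, which joins D9 with D19 and D25. Protocol A sorted live singlets, retinoid-autofluorescent cells, Epcam+ and Pdpn+ cells, Cd45+ cells, and endothelium as Lyve-1+ or Cd31+ Lyve-1-, and protocol B sorted live cells of a stellate cell preparation, Cd45+ Itgax+ Cd64-, Epcam+ and Cd3e+ Lyve-1- cells. Neither protocol had a gate for NK cells or ILCs, so numbers of members per library are set in part by the sort. The sources used here do not say whether libraries came from separate or pooled animals, so p-values measure the spread between libraries.

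Group 1 innate lymphoid cells (ILC1s) are lymphocytes without an antigen receptor that live in tissues rather than in the circulation. The liver holds a well-known ILC1 population, which shares the NK receptors NK1.1 and NKp46 and the factor T-bet with conventional NK cells but carries CD49a (Itga1), CD200R1 and CXCR6 and the death ligand TRAIL (Tnfsf10) in place of the NK factor Eomes and the integrin CD49b (Itga2). Both cell types secrete interferon gamma and kill target cells with granzymes and perforin.

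Members were found in all 13 libraries but very unevenly. Protocol A held 33 at D0, 19 at D3, 28 at D5, 16 at D9, 5 at D19 and 10 at D25. Protocol B held 65 at D0, 6 at D3, 23 at D5, 83 at D9, 345 at D19 and 246 at D25, and the recovery library held 363. The 8 libraries with at least 20 members were summed and compared, namely D0 A, D0 B, D5 A, D5 B, D9 B, D19 B, D25 B and recovery. The median member had 5394.5 UMIs, with library medians from 2369 (D0 B) to 15415 (D19 A, 5 cells), while whole libraries held 29307190 to 108602421 UMIs and 1541 to 14764 cells. Of 94448 distinct cell barcodes in the series 1104 occurred in at least 2 libraries, 40 members had a barcode that was also a cell elsewhere, and 1 barcode occurred in 2 member sets.

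Many members stood close to the rule's limits. Exactly 1 UMI of the 3 residency genes was found in 437 members, exactly 2 NK receptor UMIs in 113, and fewer than 2000 UMIs in 57. Just outside, 375 barcodes missed only the NK receptor limit with 1 UMI, and 1046 were kept out by a Cd3e or Cd3d UMI, of which 135 had exactly 1.

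The residency arm of the rule rested on 2 of its 3 genes. Cxcr6, the receptor for the chemokine CXCL16, had 35 UMIs in the whole series and 1 member with a UMI, against 231396 UMIs of Itga1, the alpha chain of the collagen receptor CD49a, and 20544 of Cd200r1, an inhibitory receptor. In the annotation used here (GENCODE, GRCm38) Cxcr6 lies on the plus strand at chr9:123806475-123811760, inside Fyco1 on the minus strand at chr9:123789500-123851899, and Fyco1 had 17219 UMIs. How far this overlap lowers the Cxcr6 count was not tested, so its near absence says nothing about CXCR6 in these cells. Itga1 is at chr13:114953096-115101964 (minus strand, with Pelo on the same strand inside it), Cd200r1 at chr16:44765736-44794978 (plus), Ncr1 at chr7:4337724-4345164 (plus) and Klrb1c at chr6:128778485-128789215 (minus). By these genes 501 members held Itga1 alone, 344 Cd200r1 alone and 397 both.

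The balance of Itga1 and Cd200r1 differed by library. Itga1 was found in 93.9% of members of D0 A and Cd200r1 in 12.1%, while in D0 B these were 44.6% and 72.3%. In the other libraries of at least 20 members Itga1 was found in 65.0% (D25 B) to 89.3% (D5 A) and Cd200r1 in 47.8% (D5 B) to 65.0% (D25 B). Itga1 UMIs also occurred where they were not sought. Among B cells, which should lack it, the share with Itga1 was 20% in D0 A (395 cells, median 2738 UMIs) and 2.96% in D0 B (676 cells, median 2465.5), and Cd200r1 was found in 0.506% and 2.37% of them. In the other protocol A libraries 17.6% (D5 A) to 42.9% (D3 A) of B cells held Itga1 and 2.86% to 18.2% Cd200r1. D0 A members thus rested mostly on the gene with the higher share in B cells, and D0 B members on the one with the lower share.

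RNA of the liver's stromal cells was present in many members. The 10 endothelial markers, among them the growth factor receptor Kdr and the scavenger receptor Stab2, summed to 4725 CPM (UMIs of a gene per 1000000 UMIs of the summed cells) in members of D0 A, 491 in those of D0 B, 5977 in D5 A, 2646 in D5 B, 1649 in D9 B, 1107 in D19 B, 1304 in D25 B and 3378 in recovery members. NK-like cells were lower in each of the 7 libraries where both could be compared, with 998 in D0 A, 339 in D0 B, 202 in D5 A, 262 in D9 B, 116 in D19 B, 120 in D25 B and 398 in recovery. At least 10 endothelial, stellate cell or fibroblast UMIs were held by 45.5% of members in D0 A, 50.0% in D5 A and 43.5% in D5 B, against 1.54% in D0 B, 12.0% in D9 B, 8.70% in D19 B, 11% in D25 B and 25.9% in recovery. At least 3 UMIs of other lineages' markers were found in 567 members (45.7%), and a UMI of a defining T cell gene (Trac, Trdc, Cd4, Cd8a, Cd8b1, Cd5 or Cd6) in 206 (16.6%). No doublet caller was run, and the part of doublets and free RNA in these values was not tested.

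**Figure D1:**
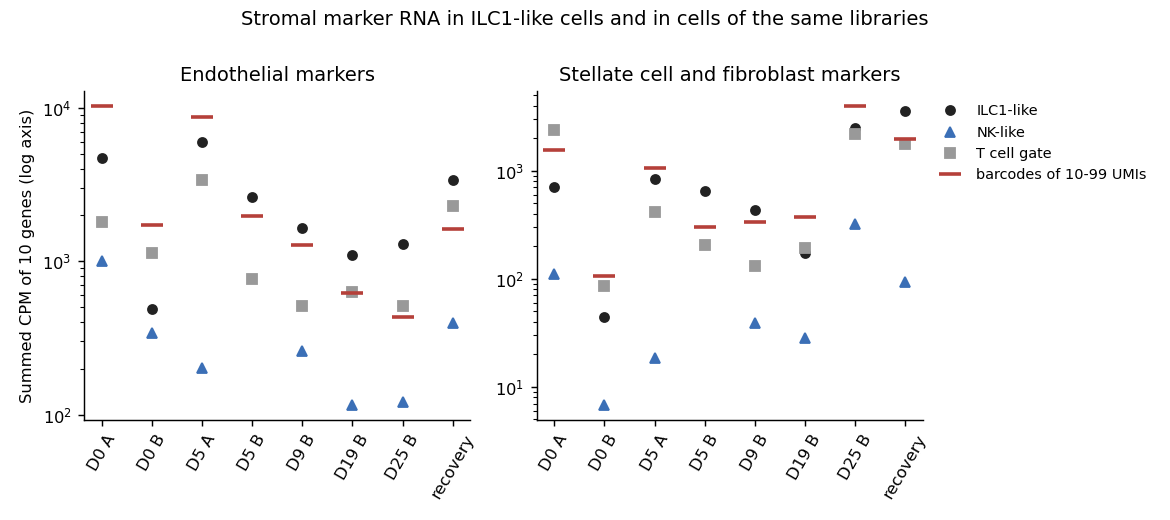
Summed CPM of 10 endothelial markers (left) and 10 stellate cell and fibroblast markers (right) in each library, on log axes, for ILC1-like cells (black circles), NK-like cells (blue triangles, where at least 20 cells), cells of the T cell gate (grey squares) and barcodes of 10 to 99 UMIs (red bars), which mostly hold free RNA. ILC1-like cells lay above NK-like cells of the same library in every pair, from 491 against 339 in D0 B to 5977 against 202 in D5 A for the endothelial markers.

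The label was checked against genes outside the rule. Eomes was low in 7 of the 8 libraries, with 0, 1, 1, 2, 24, 8 and 9 UMIs in D0 B, D5 A, D5 B, D9 B, D19 B, D25 B and recovery. No B cell of D0 A held Eomes either, so its low level alone does not identify ILC1s. The ILC1 genes outside the rule did not rise against NK-like cells, as given below. These 7 libraries also differed in how many members carried RNA of other cells. In D5 B, 20 of 23 members had at least 3 UMIs of other lineages and 13 of 23 a UMI of a defining T cell gene, against 11 and 4 of 65 in D0 B and 157 and 62 of 345 in D19 B. In these 7 libraries Eomes, the T-box factor that marks conventional NK cells, was 0 to 10.6 CPM. Tbx21 (T-bet) was present throughout, at 196, 104, 42.7, 67.0, 89.6, 99, 111 and 77.6 CPM in the order D0 A, D0 B, D5 A, D5 B, D9 B, D19 B, D25 B and recovery. Eomes was 95.2 CPM in D0 A and was found in 39.4% of those members, against 0 to 4.35% of members elsewhere and 0% of B cells in D0 A.

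D0 A members went against the label in other genes too. They held 746 CPM of Prf1 (perforin) against 128 to 208, 217 of Itga2 against 4.96 to 34.1, and 392 of the Ly49 receptor Klra4 against 0 to 44.6. They held 5.29 CPM of Gzmc against 431 to 3440.1. Zfp683 (Hobit, a residency factor) had no UMI in D0 A and was 5.14 to 19.8 CPM elsewhere. It had only 4, 4 and 1 UMIs in D0 B, D5 A and D5 B, so its absence in D0 A says little. The genes that lead each comparison, and the lists whose counts moved, are also given without D0 A because of these differences.

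Among the ILC1 genes the rule did not use, the most abundant was Rgs1, a brake on chemokine signalling. It stood at 672, 2722, 1308, 1650.3, 1699, 1480.2, 1136 and 953 CPM in the library order above, so D0 B was highest and D0 A lowest. Ltb, the lymphotoxin beta subunit, was 52.9 CPM in D0 A and 139 to 546 in the other 7. Cd160, an NK and ILC1 receptor, was 84.7, 471, 207, 72.2, 262, 357, 296 and 310.5 CPM. The death ligand Tnfsf10 was 63.5 and 49.6 CPM in the control libraries D0 A and D0 B, 207 and 124 in D5 A and D5 B, 199, 155 and 80.3 in D9 B, D19 B and D25 B, and 124 in recovery.

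Most members held granzyme B RNA. Gzmb, a serine protease of cytotoxic granules, was found in 72.7% (D0 A) to 90.4% (D9 B) of members, in 4.17% to 42.7% of cells of the T cell gate and in at most 1.18% of B cells. These B cells, chosen without an NK receptor UMI, came from D0 A, D0 B and the other protocol A libraries. Barcodes of 10 to 99 UMIs, mostly free RNA, held 0 to 205 CPM of Gzmb there. In D9 B, D19 B, D25 B and recovery, which had fewer than 20 B cells each, they held 354, 469, 929 and 519 CPM, so the B cell share is no matched background for those libraries. Thinned to 1500 UMIs per cell, the share of members with Gzmb was 57.6% (D0 A) to 74.7% (D9 B).

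The granzymes varied differently from each other. Gzmb CPM was 894, 2509, 1183, 1733, 2724, 2193, 1690.5 and 1265 in the library order above. Gzmc, a granzyme with a narrower expression, was 5.29 and 431 in the D0 libraries, 3440.1 and 1362 in the D5 libraries, 2237, 1096 and 1819 in D9 B, D19 B and D25 B, and 468 in recovery. Gzma was 5465, 2137, 3019.5, 2620, 6932, 3666, 759 and 1215 CPM, and its lowest value was in D25 B. Each of the 5 DDC libraries held more Gzmc than both D0 libraries, but the share of all genes that do so was not counted. For Gzma and Gzmb the ranges of D0 and DDC libraries overlapped.

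**Figure D2:**
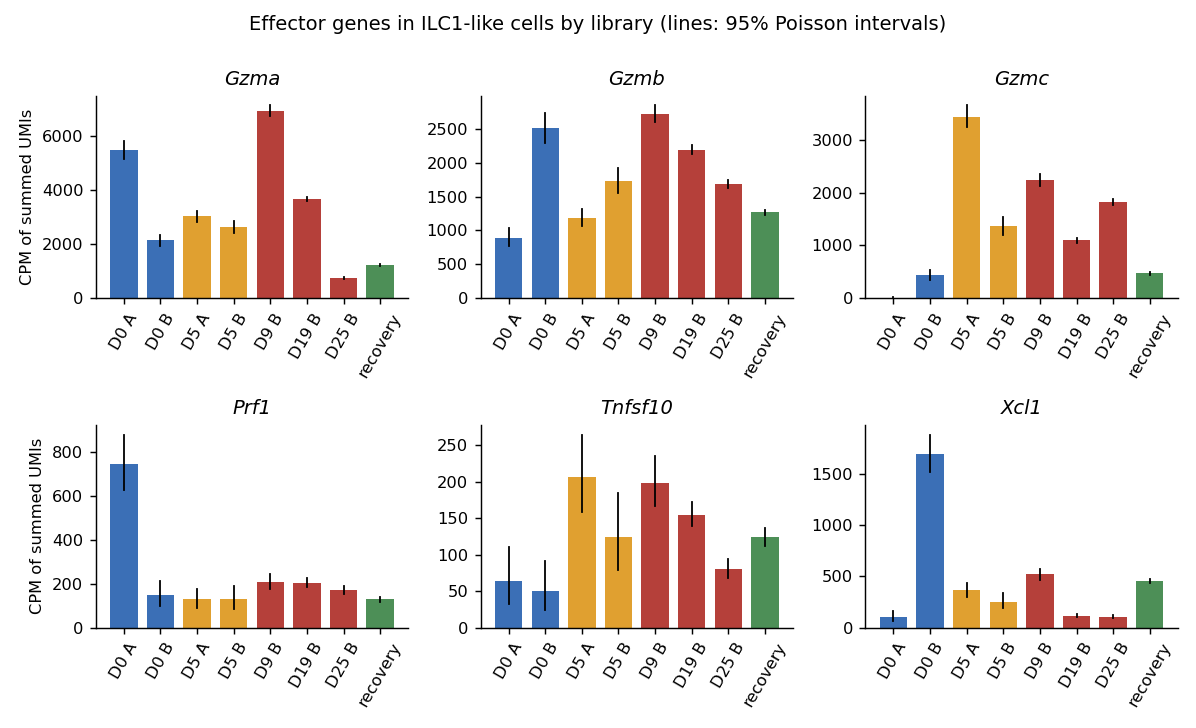
CPM of 6 effector genes in ILC1-like cells summed per library (bars, linear axes from 0, coloured by steady state, onset, progression and recovery), with 95% exact Poisson intervals, which cover counting error only. Gzmc ranged from 5.29 CPM (D0 A) to 3440.1 (D5 A), and Gzma and Xcl1 varied within stages as much as between them.

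Cytokine and chemokine genes were led by Ccl5, at 3951 (D5 B) to 17688 CPM (D0 B), and Ccl4, at 1258 (D5 B) to 7481 CPM (D0 B), both chemokines that attract T cells and monocytes. Ifng (interferon gamma) was 397 and 689 CPM in the D0 libraries, 177 and 56.7 in the D5 libraries, and 124, 230.1 and 75.1 in D9 B, D19 B and D25 B. Xcl1, the chemokine that attracts cross-presenting dendritic cells, was 1690.5 CPM in D0 B but 106 in D0 A, and 104 to 519 elsewhere. The type 2 and type 17 cytokine genes Il5, Il13, Il17a and Il22 were at 0 to 1.42 CPM.

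ILC1-like cells were then compared with NK-like cells of the same library, the most similar cells in the data, in the 7 libraries with at least 20 of both. The split was itself made on Itga1 and Cd200r1 UMIs, and deeper cells and cells with stromal RNA have more chances to hold one. With edgeR's quasi-likelihood test, library as a block and Benjamini-Hochberg adjustment, 329 of 6621 genes passed 0.05 (4.97%), 238 higher in ILC1-like cells (3.59%) and 91 lower (1.37%). DESeq2 called 386. The genes that fell were led by conventional NK genes, and the largest increases were in endothelial and stromal genes.

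Of the 17 conventional NK genes tested, 9 fell and none rose, with a median log2 difference of -1.15 against -0.02 over all genes. Without D0 A, where 2.02% of 7124 genes were higher and 0.842% lower, 7 of 17 fell, and Prf1 and the integrin gene Itga2 did not pass. Eomes ranged from 0 to 95.2 CPM in ILC1-like cells (median 3.29) and from 17.5 to 387 in NK-like cells (median 44.0). It was lower in 7 of 7 libraries, by a log2 difference of -2.98 ± 0.35 (SE, adjusted p = 0.00027 by edgeR). The 2 ranges overlap only through the D0 A members, and without D0 A the difference was -3.25.

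Klra4 (Ly49D, an activating NK receptor) ranged from 4.93 to 392 CPM (median 26.4) against 66.0 to 1181 (median 130), with a log2 difference of -2.97 ± 0.30 (SE, adjusted p = 9.6e-05 by edgeR), and -3.31 without D0 A. The Ly49 genes Klra1 and Klra8 fell as well, at -1.88 and -2.96. These genes are related members of the Ly49 family, and how reads were divided among them was not tested.

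**Figure D3:**
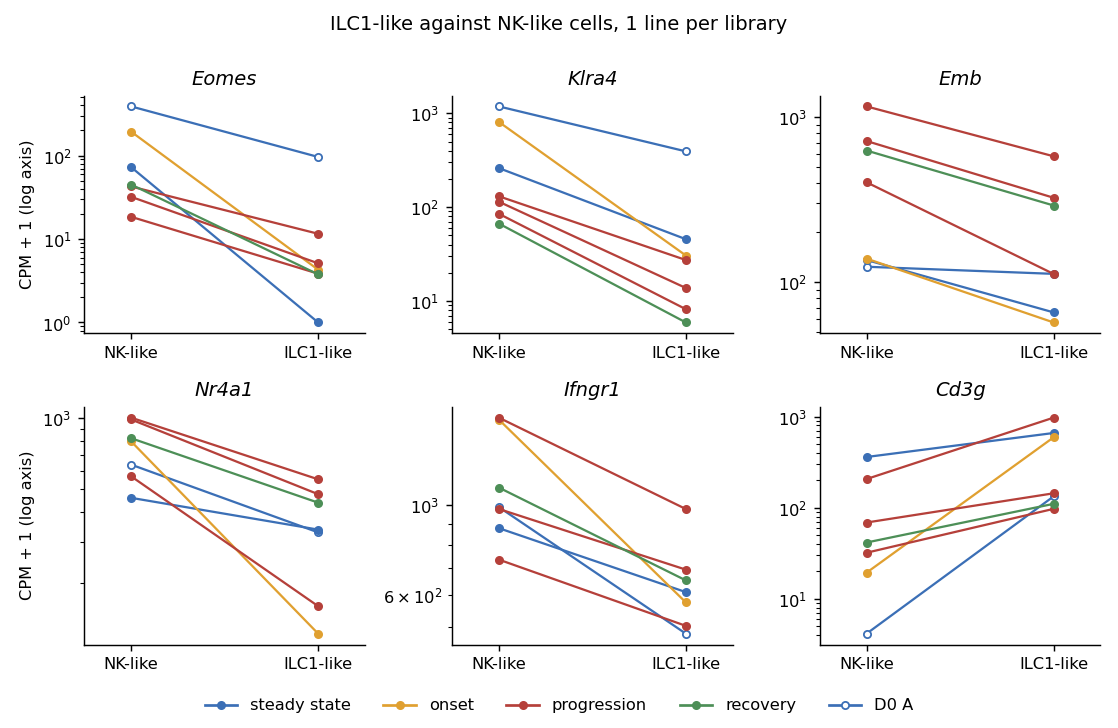
CPM + 1 of 6 genes (log axes) in NK-like cells (left of each panel) and ILC1-like cells (right), 1 line per library, coloured by stage, with D0 A as open circles. Eomes, Klra4, Emb, Nr4a1 and Ifngr1 were lower and Cd3g higher in ILC1-like cells in 7 of 7 libraries, and D0 A had the highest Eomes and Klra4 on both sides.

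The effector genes were not tested as a group. The 12 cytolytic genes had a median log2 difference of -0.36 against -0.02 over all genes, and 9 had an unadjusted p under 0.05 by edgeR. Without D0 A the median was -0.19 against -0.01. Of 12 cytolytic genes 3 fell, namely Prf1 (-1.13) and the granzyme inhibitors Serpinb9 (-0.93) and Serpinb6b (-0.74), and none rose. Without D0 A only Serpinb6b (-0.75) of 13 cytolytic genes passed. Prf1 gave -1.11 and Serpinb9 -0.84 there (adjusted p = 0.10 and 0.054 by edgeR). Gzmb gave a log2 difference of 0.19 ± 0.26 (SE, adjusted p = 0.82 by edgeR) and was higher in 4 of 7 libraries. Gzmc gave 0.79 ± 0.27 (adjusted p = 0.13 by edgeR) and was higher in 6 of 7.

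Of 10 cytokine genes Ifng (-0.84, and -0.89 without D0 A) and Ccl3 (-0.70) fell and none rose, and Ccl3 lost its call in 13 of 18 alternatives, that without D0 A among them. Of 18 cytokine receptors 4 fell, the interleukin-18 receptor chains Il18r1 (-1.53) and Il18rap (-0.98), the interferon gamma receptor chain Ifngr1 (-0.85) and the interleukin-2 receptor alpha chain Il2ra (-0.68). Of 15 NF-kB pathway genes 7 fell and none rose, among them the adaptor Traf1 (-0.79), the subunits Nfkb1 (-0.60) and Rel (-0.59), and the inhibitor Nfkbid (-0.84). Without D0 A the count was 4 of 20 cytokine receptors and 5 of 15 NF-kB genes. By median these cytokine, receptor and NF-kB genes shifted by -0.38, -0.36 and -0.53, against -0.02 over all genes. Cytolytic genes, killer cell receptors, transcription factors, and residency and trafficking genes shifted by -0.36, -0.36, -0.39 and -0.35. The ILC1 genes outside the rule shifted less, by -0.12. The part of a common shift of these lists in single falls was not tested.

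The ILC1 genes outside the rule did not rise. Of 18 tested, 3 fell and none rose, and those were Tcf7, a factor of early ILC and T cell development (-1.17), the monocyte and lymphocyte chemokine receptor Ccr2 (-0.77) and Il2ra. Ccr2 lost its call in 12 of 18 alternatives and Il2ra in 13 of 18. Without D0 A 4 of 19 fell, namely Tcf7 (-1.16), Il2ra (-0.68), the nuclear receptor gene Rora (-0.77) and Hilpda (-0.70), and Ccr2 did not pass (adjusted p = 0.079 by edgeR). Tnfsf10 was higher in 6 of 7 libraries at 0.48 ± 0.21 (SE, adjusted p = 0.27 by edgeR), and Rgs1 in 5 of 7 at 0.41 ± 0.13 (adjusted p = 0.11 by edgeR). NK-like cells were also low in Eomes in the later protocol B libraries (17.5 to 44.0 CPM in D9 B to recovery), and held 764 CPM of Gzmc in D9 B and 1334 in D25 B.

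Among 27 transcription factors Maf rose (1.43) and 6 fell, while over all genes 3.59% were higher. Maf was found in 31.8% (D5 A) to 72.7% (D25 A) of B cells in the protocol A libraries, and in 9.17% in D0 B. Members held 269 Maf UMIs in D0 A and 24 in D0 B. The part of free RNA in the Maf value was not tested. The 6 that fell were Eomes, Tcf7, the activation-induced Nr4a1 (-1.26) and Nr4a2 (-0.67), the interferon regulatory factor Irf8 (-1.15) and Stat4 (-0.67). Stat4 relays interleukin-12 signals. Nr4a1 was 122 to 551 CPM in ILC1-like (median 337) and 460 to 1006 in NK-like cells (median 799), lower in 7 of 7 libraries. Of 19 residency and trafficking genes 4 fell, among them Cxcr4 (-1.22), Itga4 (-0.80) and Ccr2. Of 21 killer cell receptors Klra5 rose (2.07) and 4 fell, and Klra5 lost its call in 11 of 17 alternatives. Of 7 T cell markers Cd3g rose and Cd2 (-1.02) and Cd28 (-0.83) fell. Nr4a2, Ccr2, Klra5 and Cd2 did not pass without D0 A.

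Cd3g, a CD3 chain, was 96.2 to 973 CPM in ILC1-like (median 143) and 3.15 to 359 in NK-like cells (median 40.5), a log2 difference of 1.76 ± 0.33 (SE, adjusted p = 0.0069 by edgeR) and higher in 7 of 7 libraries. Without D0 A it was 1.60. It was found in 15.0% (D25 B) to 75.9% (D9 B) of members, and after thinning to 1500 UMIs in 6.91% to 62.7%. Barcodes of 10 to 99 UMIs held 304 CPM of Cd3g in D9 B, 340 in D19 B, 526 in D25 B and 483 in recovery, above the members' level in the last 3 of these libraries, and B cells of those libraries were too few for a matched share. Trac, the T cell receptor alpha constant gene, was 3.29 to 46.4 CPM in the 8 member libraries. The beta constant genes Trbc1 and Trbc2 were far more abundant, with 4456 and 4120 UMIs over these libraries against 164 of Trac and 1986 of Cd3g. The rule removes cells with a Cd3e or Cd3d UMI but not those with Cd3g.

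The largest increases were in matrix and endothelial genes. All 8 endothelial markers tested rose, as did 2 of 3 stellate cell and fibroblast markers. Without D0 A these counts were 6 of 7 and 2 of 3. Of 8 cholangiocyte markers Clu (2.31) and Krt18 (1.63) rose, but neither passed without D0 A, and each lost its call in 11 alternatives and reversed in 1. The 10 with the largest increases were the matrix genes Bgn (4.13 ± 0.36 SE), Sparc (4.11) and Nid1 (3.80), the endothelial genes Ptprb (4.12), Kdr (3.82), Gpr182 (3.82) and F8 (3.81), the water channel Aqp1 (3.89), Pcdh17 (3.88) and Adam23 (3.82). The 8 of these tested without D0 A all rose there, by 4.12 to 4.89. No type I interferon-stimulated gene (20 tested) and no cell cycle gene (16 tested) passed.

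Without cells that held any UMI of the endothelial or stellate cell and fibroblast markers (stromal-positive cells) the comparison kept 4 libraries (D0 B, D19 B, D25 B and recovery) and called 17 genes. The difference of Eomes was then -3.44, of Klra4 -3.56, of Nr4a1 -0.80, of Ifngr1 -0.47 and of Cd3g 1.0, and each passed. Prf1, Ifng, Tcf7, Maf and Il18r1 did not (adjusted p = 0.32, 0.39, 0.30, 0.17 and 0.15 by edgeR). A total of 9 genes passed in the full comparison, without stromal-positive cells, without cells with at least 3 UMIs of other lineages and with Cd200r1 as the only residency gene, a selection made after the values were seen. Among these were Cd3g, which rose, and Eomes, Klra4, Vegfa (an angiogenic factor, -1.49), Nr4a1, Gramd3 (-1.22), Emb (-1.18) and Ifngr1, which fell.

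Across disease stages the members were compared in 2 steady state (D0 A, D0 B), 2 onset (D5 A, D5 B) and 3 progression libraries (D9 B, D19 B, D25 B), with isolation protocol as a covariate. The libraries of a stage differed widely, and edgeR called 0 of 5681 genes between onset and steady state (0%), 0 between progression and steady state (0%) and 0 between progression and onset (0%). At an unadjusted p under 0.05 there were 293, 411 and 330 genes, and DESeq2 called 2, 7 and 32. Leaving out any 1 library, D0 A included, also gave 0 in each comparison. All progression libraries were from protocol B. In simulated data these fits recovered 17% to 21.5% of genes changed by a log2 difference of 2, so 0 calls do not show that no gene changed.

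Onset against steady state was led by Lyve1, a hyaluronan receptor of sinusoidal endothelium, at 37.0 and 9.91 CPM in the D0 libraries and 624 and 242 in the D5 libraries. Its log2 difference was 4.23 ± 0.59 (SE, adjusted p = 0.44 by edgeR). The summed endothelial markers were 4725 (A) and 491 CPM (B) at D0, and at D5 they were 5977 (A) and 2646 (B), so they overlapped between the stages, and their part in this value was not tested. The next in order of p were the heat shock co-chaperone Dnajb1 (-3.04), the dendritic cell gene Wdfy4 (3.17), Apold1 (2.75) and Klra4 (-3.88). Without D0 A the values were 4.34 for Lyve1, -3.34 for Dnajb1, 2.46 for Wdfy4 and 3.23 for Apold1, and none passed. Klra4 had 74 UMIs in D0 A, 9 in D0 B, 9 in D5 A and 0 in D5 B.

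Progression against steady state was led by Dnajb1, at 307 and 699 CPM in the D0 libraries and 29.9, 50.1 and 85.9 in D9 B, D19 B and D25 B. Its log2 difference was -3.79 ± 0.52 (SE, adjusted p = 0.37 by edgeR). The inducible chaperone Hspa1a went the same way, with 799 and 183 CPM at D0 and 9.95, 9.68 and 32.4 in progression (-4.26, adjusted p = 0.64 by edgeR). Ifi27l2a (-2.29), an interferon-stimulated gene, Cd209a (-3.24), a dendritic cell lectin, and Lrg1 (6.52) followed. Without D0 A Dnajb1 gave -3.86, Hspa1a -3.57, Ifi27l2a -2.19, Cd209a -3.50 and Lrg1 8.46, with adjusted p from 0.078 to 0.13 by edgeR.

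Progression against onset was led by Cd209a (-4.16), the pro-apoptotic Pmaip1 (-3.17), Ifi27l2a (-2.19), Ifitm6 (-3.19) and Il1b (-2.39), with adjusted p from 0.32 to 0.55 by edgeR, and 0.16 for each without D0 A. Cd209a and Il1b mark myeloid cells, and Il1b was 59.1 CPM in D5 A and 1325 in D5 B, so the onset libraries differed widely from each other.

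Among the ILC1 genes outside the rule no stage difference passed, and the same held for effector genes. Il2ra was 0 and 9.91 CPM at D0 (0 and 2 UMIs), 49.3 and 20.6 at D5 (15 and 4 UMIs), and 104, 136 and 78.7 in progression. Its log2 difference of progression against steady state was 4.46 ± 0.99 (SE, adjusted p = 0.64 by edgeR). Tnfsf10 gave 1.46 ± 0.55 for onset and 1.47 ± 0.58 for progression against steady state (adjusted p = 0.85 and 0.67 by edgeR). Gzmc gave 4.27 ± 1.63 and 2.59 ± 1.20 (adjusted p = 0.85 and 0.67 by edgeR), and Ifng -2.33 ± 0.79 and -2.05 ± 0.66 (adjusted p = 0.85 and 0.67 by edgeR). Klf2, a factor that promotes tissue exit, was 730.1 and 991 CPM at D0 and 151, 133 and 173 in progression (-2.47 ± 0.55 SE, adjusted p = 0.64 by edgeR). By median, the 17 ILC1 genes tested shifted by -0.13 in onset and 0.11 in progression against steady state, and the 14 conventional NK genes by -1.59 and -0.59, with 0 genes called in either list. The medians over all genes were 0.01 and 0.06. Without D0 A the conventional NK medians were 0 and 0.43 (15 genes), against 0.12 and 0.26 over all genes, so their negative values rested on D0 A. The ILC1 gene medians were then -0.69 and -0.07 (19 genes). Without D0 A, onset and progression gave 1.06 and 1.26 for Tnfsf10, 1.4 and 1.73 for Gzmc, -3.86 and -2.52 for Ifng, and -3.09 and -2.96 for Klf2, and progression gave 3.15 for Il2ra. None of these passed.

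The stage differences were also compared between ILC1-like and NK-like cells in the 6 atlas libraries with both. The interaction test of edgeR called 0 of 5510 genes between onset and steady state (0%) and 0 between progression and steady state (0%), with 363 and 232 genes at an unadjusted p under 0.05 and 1 and 7 called by DESeq2. Onset rested on D5 A alone. Lyve1, Dnase1l3, Bmp2, Gpihbp1 and Mcam, genes known from endothelium, had the lowest p-values in progression, all with positive values. In onset these were Id1 (-5.96), Cd38 (9.25), Nfkbia (-2.02), F8 (9.68) and Lyve1 (6.17). D5 A gave 28 members (304351 UMIs) and 26 NK-like cells (108911 UMIs) to them, and F8 had 3 UMIs in D0 B members, so these sizes are uncertain.

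The share of ILC1-like cells in the NK gate is the share of its cells with an Itga1, Cd200r1 or Cxcr6 UMI, the values that chose the members. It is therefore a description with no test, and it moves with depth and with background UMIs of these genes. The share was 22.9% of 144 cells in D0 A and 22.2% of 293 in D0 B (exact 95% binomial intervals 16.3 to 30.7% and 17.6 to 27.4%, which cover counting error only). In protocol A it was 42.2% at D3, 51.9% at D5, 37.2% at D9, 38.5% at D19 and 62.5% at D25. In protocol B it was 66.7% at D3 (9 cells), 65.7% at D5, 72.8% at D9, 62.8% at D19 and 56.9% at D25, and in the recovery library it was 68.8%. The mean was 55.7% ± 12.7 (SD) over the 10 DDC libraries and 22.6% ± 0.518 (SD, n = 2) at D0.

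In protocol A the B cells, which should lack these genes, held Itga1 or Cd200r1 at shares near those of the NK gate. Their share was 20% in D0 A, 45.7% in D3 A (35 cells), 17.6% in D5 A (85 cells), 39.7% in D9 A (146 cells), 50% in D19 A (22 cells) and 36.4% in D25 A (22 cells). The NK gate of D3 A, D9 A and D19 A thus lay below the B cells. In D0 A its share was close to theirs (22.9% against 20%), and in D5 A and D25 A above theirs. By Cd200r1 alone the NK gate of D3 A, D9 A and D19 A stood at 20%, 14.0% and 23.1%, against 2.86%, 3.42% and 18.2% of B cells. The part of background UMIs in these shares was not tested. Median depths were 2738 to 5038 UMIs in B cells and 2769.5 to 8002 in the NK gate of these 6 libraries. In D0 B 5.18% of B cells (676 cells, median 2465.5 UMIs) held either gene, and the later protocol B libraries had 5 to 16 B cells each. In the T cell gate, which can hold resident T cells, the share was 9.03% in D0 B, 14.2% to 22.6% in the DDC libraries of protocol B and 36.6% in recovery.

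The share moved with depth, which differed between stages. The median cell of the NK gate had 2769.5 UMIs (A) or 2131 UMIs (B) at D0 and 3078 to 9638 in the DDC libraries. With every cell thinned to 1500 UMIs before the rule was applied, the 2 D0 libraries had shares of 16.2% (A) and 13.8% (B), and those under DDC had 19.2%, 0%, 28.0% and 43.5% in D3 A, D3 B, D5 A and D5 B, 27.3% and 43.9% in D9 A and D9 B, 0% and 32.3% in D19 A and D19 B, and 16.7% and 23.8% in D25 A and D25 B. The 2 libraries at 0% had 4 and 5 cells left in the gate. The DDC mean lay 33.2 points above the D0 mean from all UMIs and 8.48 points above it when thinned. With Cd200r1 alone in place of the 3 residency genes these were 23.1 and 5.39 points. In this relative share, more ILC1-like cells and fewer NK-like cells cannot be told apart.

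**Figure D4:**
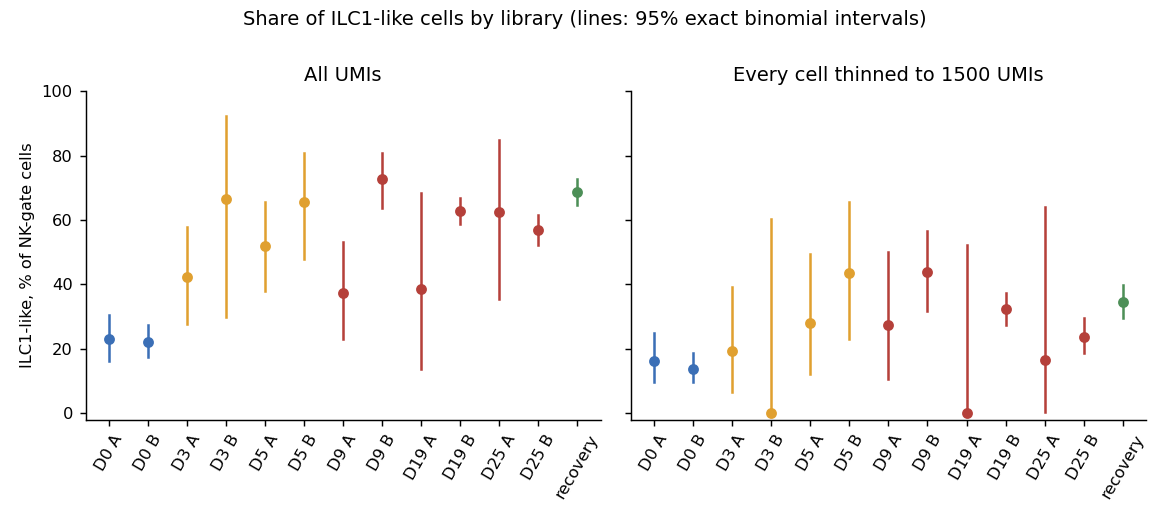
Share of ILC1-like cells in the NK gate per library, in percent, from all UMIs (left) and with every cell thinned to 1500 UMIs before the rule was applied (right), with 95% exact binomial intervals, coloured by stage. From all UMIs the D0 libraries were at 22.9% and 22.2% and the DDC libraries at 37.2% to 72.8%. After thinning the D0 libraries were at 16.2% and 13.8% and the DDC libraries at 0% to 43.9%. The 2 libraries at 0% had 4 and 5 gate cells. The share is counted from genes of the rule and is a description with no test.

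The recovery library, with 363 members and 3246541 UMIs, was set beside D19 B, with 345 members and 2273316 UMIs, the protocol B library nearest to the end of its diet. With 1 library each there was no test, and genes are counted as different when their CPM differed by more than 2-fold with separate exact 95% Poisson intervals, which cover counting error only. By this rule 1679 of 12199 genes differed (13.8%), 1308 higher (10.7%) and 371 lower (3.04%) in recovery. Between D25 B and D19 B, both on DDC, 923 of 11470 genes differed (8.05%), and 5.41% were higher in D25 B. Against both D19 B and D25 B, 549 genes were higher and 124 lower in recovery.

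The list counts that follow are also given in other settings, with these shares over all genes. Against D25 B 6.96% of 12131 genes were higher and 3.25% lower in recovery. Without stromal-positive cells these shares were 2.38% and 2.33% of 8075 genes, and without cells with at least 3 UMIs of other lineages 3.68% and 2.32% of 8802. In the T cell gate of recovery and D19 B 11.4% of 15705 genes were higher in recovery, and in NK-like cells 4.87% of 9039. The shares of genes lower in those cell sets, and in D25 B against D19 B, are not given here.

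Genes known from other cell types led the higher side. Hbb-bt, a haemoglobin chain of red cells, had 675 UMIs in recovery and 0 in D19 B, and Car3, Lum and Sod3 had 311, 259 and 268 UMIs against 0. Mgp (742 CPM against 0.880), Mup20 (355 against 0.440) and Fabp1 (928 against 1.32) are genes of fibroblasts and hepatocytes, and were at 8.75, 7.20 and 9.26 CPM in D25 B. The collagen gene Col3a1 was 621 CPM against 1.32 in D19 B but 511 in D25 B. Stellate cell and fibroblast markers were higher for 9 of 9 genes, endothelial markers for 7 of 10 and hepatocyte markers for 9 of 12. Against D25 B the counts were 1 higher and 1 lower of 9 stellate cell and fibroblast markers, 7 of 10 and 10 of 12, and D25 B itself was higher than D19 B for 9 of 9 stellate cell and fibroblast markers. In the T cell gate of recovery and D19 B these 3 lists were higher in recovery for 8 of 9, 9 of 10 and 11 of 12 genes. In NK-like cells they were higher for 1 of 5, 4 of 6 and 8 of 9. At least 10 stromal UMIs were held by 25.9% of recovery members against 8.70% in D19 B. On the lower side were the mitochondrial tRNA ligase gene Lars2 (59.4 CPM against 655), the small nuclear RNA Rn7sk (10.5 against 110.0), CT010467.1 (4268 against 23655), Ly6d, Trem2, Sfn, Mmp12 and Olfr1258. Lars2, Rn7sk and CT010467.1 were lower in NK-like cells and in the T cell gate of the same library too.

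Conventional NK genes were mostly lower or within 2-fold in recovery members. Of 18 conventional NK genes 1 was higher and 6 lower. Gzma was 1215 CPM (95% interval 1178 to 1254) against 3666 (3588 to 3746), a ratio of 0.331, and Klra3 0.355, Klra4 0.187 and Klra7 0.166. Eomes had 9 UMIs against 24 and Klra8 1 against 75. Gzma in D25 B, at 759 CPM, was lower still, and against D25 B the count was 3 lower of 18. Without stromal-positive cells 3 of 15 were lower, and without cells of other lineages' UMIs 8 of 15, with 1 higher in each. In NK-like cells of recovery and D19 B 3 of 18 were lower and 1 higher. In the T cell gate 2 of 19 were lower and 2 higher, and D25 B was itself lower than D19 B for 4 of 18. Of 14 cytolytic genes 4 were lower and none higher, with Gzmc at 468 CPM against 1096 (ratio 0.427), Gzmk at 0 UMIs against 12, and Ctsd. Gzmb, at 1265 against 2193 CPM, did not reach 2-fold (ratio 0.577). Against D25 B, and without stromal-positive cells, 1 of 13 cytolytic genes was lower, and without cells of other lineages' UMIs 2 of 13 were. In NK-like cells 1 of 13 was lower, and in the T cell gate 2 of 14 were lower and 5 higher.

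Of 20 cytokine receptors tested 5 were lower and none higher, namely Il18rap (0.310), Il2ra (0.313), Il18r1 (0.430), Il12rb2 (0.455) and Il2rg (0.496). The count was 2 of 20 against D25 B and also without stromal-positive cells. It was 2 of 20 as well in NK-like cells and in the T cell gate of recovery and D19 B. Of 15 NF-kB pathway genes 3 were lower and none higher, Tnfaip3 (0.332), Nfkbiz (0.451) and Icam1 (0.494). The count was 3 of 15 without stromal-positive cells and 1 of 15 against D25 B. It was 2 of 15 in NK-like cells and 0 of 15 in the T cell gate. Macrophage and monocyte markers were lower too, for 5 of 11 genes with none higher, among them C1qc (145 CPM against 337) and Marco (29.0 against 115). Without stromal-positive cells 9 of 9 were lower, without cells of other lineages' UMIs 1 of 4, and against D25 B 5 of 11 were lower and 2 higher. The part of myeloid RNA in the NF-kB values was not tested.

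ILC1 and trafficking genes differed in both directions or little as groups, with median log2 ratios of -0.25 and -0.23 against 0.12 over all genes. Of 20 ILC1 genes outside the rule 3 were higher, Xcl1 (453 CPM against 114, ratio 3.97), the oxysterol receptor Gpr183 (2.49) and Ccr2 (389 against 190.0, ratio 2.05), and Il2ra was lower. The count was 3 higher and 1 lower as well without stromal-positive cells, without cells of other lineages' UMIs and against D25 B. Klf2 was 424 CPM against 133 (ratio 3.18). Of 21 residency and trafficking genes 4 were higher and none lower, with the chemokine receptor Ccr7 (40.4 CPM against 2.64) and the integrin Itgae (49.9 against 6.16) beside Gpr183 and Ccr2. The count was 2 higher and 1 lower of 17 without stromal-positive cells, and Ccr7 and Itgae are also genes of dendritic cells, whose markers were higher for 7 of 9 genes.

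Cell cycle genes were higher in recovery for 16 of 23, with none lower. Among them were the proliferation marker Mki67 (147 CPM against 70.4), the topoisomerase Top2a (187 against 74.8), Stmn1 (225 against 64.2) and the kinase Cdk1 (27.4 against 5.72). The count was 12 of 21 without stromal-positive cells, 6 of 23 against D25 B, 15 of 23 in the T cell gate of the same 2 libraries and 9 of 22 in NK-like cells. Mki67 in D9 B, at 145 CPM, was as high as in recovery.

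Type I interferon-stimulated genes were higher for 10 of 25, with none lower, among them Ifit3 (41.6 CPM against 3.96), Ifit1 (19.1 against 3.52), Ifi27l2a (262 against 48.4) and Isg15 (146 against 50.1). The count was 10 of 25 against D25 B as well, 2 of 20 without stromal-positive cells and 3 of 19 without cells of other lineages' UMIs. It was 8 of 26 in the T cell gate and 1 of 24 in NK-like cells. Of 26 immediate early and heat shock genes 4 were higher, the chaperones Hspa1a (142 CPM against 9.68), Hspa1b (196 against 14.1), Hsph1 (72.7 against 21.1) and Dnajb1 (109 against 50.1), and Hspa1a in D0 A, at 799 CPM, was above both. Against D25 B 2 of these 26 genes were higher and 1 lower, and D25 B was itself higher than D19 B for 4 of 26. Without stromal-positive cells 6 of 26 were higher, and without cells of other lineages' UMIs 4 were higher and 1 lower. In NK-like cells of recovery and D19 B 4 of 26 were higher in recovery, and in the T cell gate 3 of 26.

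**Figure D5:**
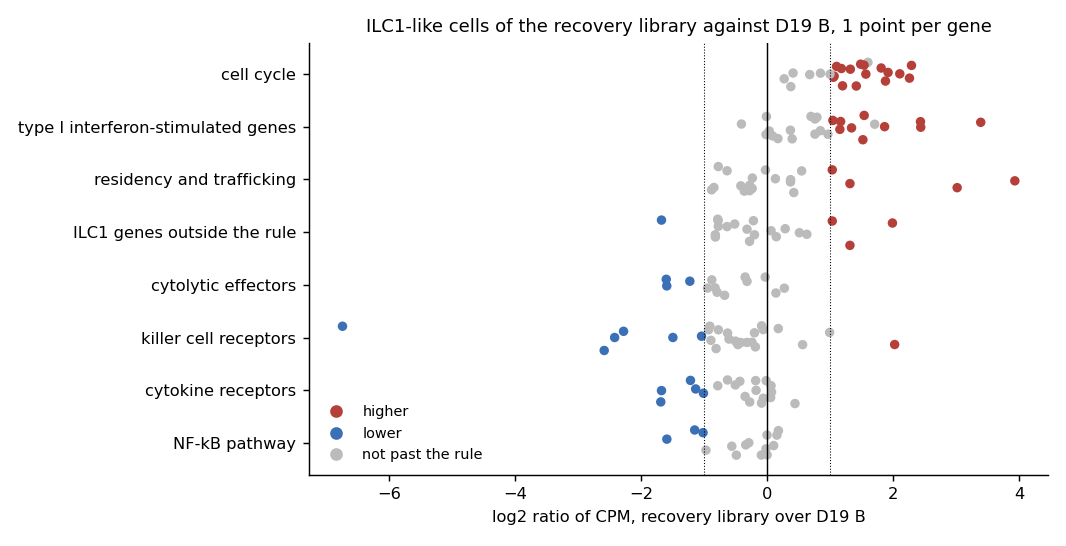
Log2 ratio of CPM in ILC1-like cells of the recovery library over D19 B for the genes of 8 lists (1 point per gene with UMIs in both libraries, spread vertically for legibility), red where higher and blue where lower by more than 2-fold with separate Poisson intervals. Cell cycle genes were higher for 16 of 23, type I interferon-stimulated genes for 10 of 25, and cytolytic, cytokine receptor and NF-kB genes held 4, 5 and 3 lower genes and none higher.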

How the data were processed

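Livers were dissociated by 2 protocols and captured with droplet single-cell RNA-seq (10x 3' kit v3.1). The authors deposited 1 matrix of UMI counts per gene and barcode for each of 13 libraries, not normalised. The submitters' processing notes name kallisto and GRCm38, and versions are not given in the sources used here. Doublet removal, filters and clustering by the authors are not part of these counts, and no doublet caller was run. Libraries held 29307190 to 108602421 UMIs.

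Barcodes with at least 1500 UMIs were taken as cells and classed by raw UMIs. Members, lists and tests were chosen with earlier results of these data known. UMIs of members were summed per library where at least 20 were present, since cells are not replicates. Sums were fitted with edgeR 4.0.16 in R 4.3.3 (quasi-likelihood test, TMM, filterByExpr, Benjamini-Hochberg adjustment at 0.05), and SE is the log2 difference divided by the square root of F. Stage fits carried isolation protocol as a covariate, and the comparison with NK-like cells carried library as a block. The 9 genes of the rule were not tested. Shares of the NK gate were also run through a permutation test, whose p-values are not given because the share is counted from genes of the rule. The recovery library was described by exact 95% Poisson intervals for genes with at least 10 UMIs. CPM is UMIs of a gene per 1000000 UMIs of the summed cells, and 3' counts were not divided by length. Python 3.11.15, numpy 2.4.6, scipy 1.17.1 and pandas 2.3.3 were used, with DESeq2 1.42.0 as an alternative. The fits were tested on simulated data with 200 genes (199 for the interactions) changed by a log2 difference of 2. Onset and progression against steady state and progression against onset recovered 21%, 17% and 21.5% of these, with 0%, 15% and 14% of calls false. The comparison with NK-like cells recovered 89.5% (3.76% false). The interactions recovered 0.503% in onset (66.7% false) and 49.2% in progression (10.1% false).

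Named genes were the called members of 25 lists (up to 4 a list and direction) and the 10 largest called changes each way against NK-like cells (8 each way for stages and recovery) with mean log2 CPM of at least 5, or the 5 lowest p-values where fewer than 3 genes were called. Other genes named with their levels (among them Lyve1, Mki67 and Isg15) were chosen after their values were seen. Alternatives were other depth limits, thinning, stricter or other residency genes, cells without T cell, stromal or other-lineage UMIs, no filter, no protocol term, DESeq2, and each library left out. Those on Cd200r1 alone, defining T cell genes, stromal UMIs, protocol B only, libraries with at least 20 gate cells and the recovery library were added after the data were seen. Some genes of the lists are not reported here, though counts over the lists include them.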

Additional observations from a re-analysis of the deposited data

Results flagged for a closer look

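The median UMI count of ILC1-like cells in D19 A, at 15415 from 5 cells, lay apart from the other 5 progression libraries, since its gap to the nearest was 0.669 of the range of the 6 values. It was 1 of 6 groups of values examined this way, and chance sets about 1 in 20 such groups apart. D19 A held too few members to enter any comparison across genes, and its share of ILC1-like cells in the NK gate, 5 of 13 cells, enters the comparison of shares.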

How the results depend on the processing

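With DESeq2 the calls were 2 for onset and 7 for progression against steady state, 32 for progression against onset, and 1 and 7 for the interactions in onset and progression. With no filter on low counts they were 54, 79, 149, 33 and 71, and 1205 for ILC1-like against NK-like cells. Cells of at least 3000 UMIs left D0 A, D5 A, D9 B, D19 B and D25 B, so stage and protocol cannot be told apart there. Progression against steady state gave 21 calls in these, 25 without cells of other lineages' UMIs and 188 without stromal-positive cells, where D0 B alone was steady state, and the progression interaction gave 17 and 34 under the latter pair. Leaving out 1 library gave 0 to 0 calls in each stage comparison and the onset interaction, and 0 to 7 in the progression interaction (7 without D9 B).

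ILC1-like against NK-like cells gave 93 calls without cells of other lineages' UMIs (44 of them among the 329), 154 in cells of 3000 to 8000 UMIs, 110 with Cd200r1 alone (99 shared), 219 without defining T cell UMIs, 150 in protocol B only and 17 without stromal-positive cells (11 shared). With 1 library left out it gave 134 to 647, namely 204 without D0 A, 647 without D9 B, 182 without D19 B, 147 without D25 B and 134 without recovery. Eomes, Klra4, Cd3g, Nr4a1 and Ifngr1 passed in every alternative that tested them, and Eomes was filtered out with 10 cells per library.

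The share, which has no test here, was 33.2 points higher under DDC than at steady state, and 8.48 thinned, 25.5 without T cell UMIs, 24.3 without other lineages' UMIs, 5.39 thinned with Cd200r1 alone, 33.1 in libraries of at least 20 gate cells and 16.2 in those libraries thinned. With 1 library left out it was 31.3 to 35.2, 30.7 to 38.9 for onset, 29.0 to 36.2 for progression against steady state and -6.28 to 2.10 for progression against onset. Leaving out a library does not change depth or background UMIs of the genes that chose the members, so these ranges say nothing about either. Progression against steady state was 32.6 points. Progression against onset turned positive at 1.32 thinned, 3.34 without T cell UMIs, 1.81 with Cd200r1 alone, 3.06 with both, 4.19 in libraries of at least 20 gate cells and 1.59 in those thinned. The recovery comparison gave 528 genes without other lineages' UMIs and 380 without stromal-positive cells.

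Of single genes, 990 values kept direction and side of the threshold, 208 were no longer called, 47 were newly called and 18 reversed. D5 A was the only onset library in cells of at least 3000 UMIs, with 2 residency UMIs and without defining T cell UMIs. In cells of at least 3000 UMIs Cd209a was 1.35 for progression against steady state and Il1b 1.98 against onset. Il1b against onset was also 2.02 with 2 residency UMIs, 0.50 with 10 cells per library and 7.55 without defining T cell UMIs, where Cd209a was 1.34, Ifitm6 3.72 and, for onset, Wdfy4 -5.77. Klra4 in onset was 4.33 with 2 residency UMIs. Against NK-like cells, without other lineages' UMIs, Egr1 was -0.18, Klf4 -0.24, Jun -0.065 and Mt1 -0.77, and without stromal-positive cells Egr1 was -0.24 and Mt1 -1.74. In cells of 3000 to 8000 UMIs, Klf4 was -0.17, Krt18 -0.053 and Clu -0.56. The cause of these changes was not tested. No fit across genes was run without cells of any T cell UMI, which left too few. No paired analysis was possible because libraries carry no replicate numbers, beyond the block on library.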

Other observations

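Immediate early and stress genes gave a mixed picture between ILC1-like and NK-like cells of the same library. Of 26 immediate early and heat shock genes Egr1 (1.67), Jun (1.0) and Klf4 (0.76) rose and Ier2 (-0.41) fell by edgeR, and the metallothioneins Mt1 (1.81) and Mt2 (2.01) rose among 13 oxidative and metal stress genes. Jun lost its call in 12 of 18 alternatives and reversed in 1, Klf4 lost it in 11 and reversed in 2, Ier2 lost it in 11, and Egr1 kept it in 11, lost it in 5 and reversed in 2. Without D0 A 1 of the 26 genes was higher (Egr1) and 1 lower (Fosl2, -0.44). Egr1 and Mt1 changed direction without stromal-positive cells. Of 17 interferon gamma targets 1 rose, the GTPase gene Iigp1 (3.07), while over all genes 3.59% were higher. Iigp1 lost its call in 2 of 15 alternatives. It was found in 18.2% (D19 A) to 45.5% (D25 A) of B cells in the protocol A libraries, and in 3.11% in D0 B. Members held 170 Iigp1 UMIs in D0 A and 1 in D0 B. The part of free RNA in the Iigp1 value was not tested.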
